A study of Mus musculus with 37 samples.

Results

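Peripherin and 9 related genes of intermediate filaments were followed in the hippocampus of mice that had lost the histone demethylase Kdm1a in adult forebrain neurons. The 10 genes are Prph, Nefl, Nefm, Nefh, Ina, Vim, Nes, Gfap, Des and Synm. They were taken by name from the 48795 genes of the count table, and all 10 passed the filter on low counts, which left 16799 tested genes. RNA was sequenced from hippocampi of 3 Kdm1a-ifKO and 3 control male mice on a C57BL/6J background, with 1 library per mouse. Kdm1a-ifKOs carried Kdm1a f/f, with loxP sites around exons 5 and 6, and Camk2a-creERT2, whose recombination is limited to principal neurons of the forebrain. Controls, labelled WT, were littermates without creERT2. Both groups received tamoxifen at 8 weeks of age in 5 intragastric doses, and the age at RNA collection is not given for these libraries. CTCF ChIA-PET, which maps pairs of distant DNA sites held together with the boundary protein CTCF, was available as 1 library of hippocampal excitatory nuclei. These nuclei were sorted by Sun1-GFP from 12-week-old Camk2a-creERT2 mice without the Kdm1a deletion, a month after tamoxifen.

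Intermediate filaments are ropes of coiled-coil proteins that give cells mechanical strength and, in axons, set the calibre. In mature central neurons they are built from the neurofilament light, medium and heavy chains (Nefl, Nefm, Nefh) and α-internexin (Ina), which belong to type IV. Peripherin (Prph) is a type III protein that is best known from peripheral neurons, and vimentin (Vim), desmin (Des) and the astrocytic GFAP (Gfap) are of the same type. Nestin (Nes) marks neural progenitors, and synemin (Synm) needs partners such as vimentin or desmin to form filaments.

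Library totals lay between 18985542 and 19469947 counts, and TMM normalization factors between 0.981 and 1.01. Kdm1a itself had 79.5, 81.1 and 79.6 CPM (counts divided by the library size after TMM normalization) in controls and 39.3, 36.9 and 38.4 CPM in Kdm1a-ifKOs, a log2 fold change (log2FC) of -1.07 (SE 0.06, edgeR's adjusted p = 6.24e-08). The tissue also holds cells outside the recombined population, and in such bulk samples fewer cells of a type and less RNA per cell cannot be told apart.

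RefSeq promoter sequences (GRCm38.p6) were at hand for 7 members: Prph, Ina, Vim, Nes, Gfap, Des and Synm. Those for Nefl, Nefm and Nefh were not analysed here. The 250 bases before the annotated start were searched on both strands, with overlapping matches counted separately. The TATA box was searched as TATAAA. The GC box was searched as GGGCGG. A core of the motif of CTCF was searched as CCCTC. Shown are Prph (chr15:99054924-99055173, plus strand), which rose the most, Vim (chr2:13574061-13574310, plus strand), the only other member with TATAAA, and Synm (chr7:67759743-67759992, minus strand), the other member that rose. Each reads 5′ to 3′ and ends at the base before the start, and capitals mark the matches.
Prph: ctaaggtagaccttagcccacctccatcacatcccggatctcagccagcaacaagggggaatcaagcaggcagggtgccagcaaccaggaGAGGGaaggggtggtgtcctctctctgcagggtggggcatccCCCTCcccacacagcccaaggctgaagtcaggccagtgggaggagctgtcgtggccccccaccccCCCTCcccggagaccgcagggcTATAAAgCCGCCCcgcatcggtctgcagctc
Vim: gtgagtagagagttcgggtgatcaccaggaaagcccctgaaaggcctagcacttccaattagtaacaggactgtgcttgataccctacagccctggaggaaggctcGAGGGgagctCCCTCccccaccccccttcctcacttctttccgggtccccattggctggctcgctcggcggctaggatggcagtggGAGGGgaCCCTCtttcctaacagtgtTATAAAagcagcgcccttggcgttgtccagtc
Synm: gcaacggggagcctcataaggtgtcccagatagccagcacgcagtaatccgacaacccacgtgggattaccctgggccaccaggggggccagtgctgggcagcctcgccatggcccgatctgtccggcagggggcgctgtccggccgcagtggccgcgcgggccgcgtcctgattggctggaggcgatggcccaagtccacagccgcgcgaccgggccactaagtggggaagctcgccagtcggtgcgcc

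The Prph window held 1 TATAAA at position -31, counted with -1 as the base before the start. It also held 1 GGGCGG on the opposite strand and 3 CCCTC matches. TATAAA began at position -32 in Vim and was in none of the other 5 member windows, compared with 12.4% of all 32851 RefSeq promoter windows of this length. GGGCGG was in 32.7% of those windows and in the windows of Prph, Ina, Nes and Des. CCCTC was in 60.5% of all windows and in those of every member but Synm, whose window held none of the 3 motifs. The GC content of the Prph window was 65.2%, and its 7 CpG dinucleotides compared with a median of 6 over all windows, where the median GC content was 52.4%. The Synm and Ina windows held 23 and 25 CpGs at 70.0% and 70.8% GC. A match is a description of these letters and not of a bound factor.

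In control hippocampus the filament mRNAs spanned more than 2 orders of magnitude. Levels between genes were compared in TPM, which divides counts by the summed exon length of a gene before scaling to the library. Nefl was the most abundant at 485 ± 13.2 TPM (SD, n = 3), followed by Gfap at 383 ± 41.3 TPM and Ina at 273 ± 1.10 TPM. Nefm (147 TPM), Nefh (65.1 TPM), Vim (39.5 TPM), Synm (27.5 TPM) and Nes (9.54 TPM) followed in this order. Prph, at 2.55 ± 0.556 TPM, and the muscle filament gene Des, at 1.94 ± 0.287 TPM, were at the bottom. Neighbours in this order did not overlap over the 3 libraries, except Prph and Des.

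In Kdm1a-ifKOs, Prph moved from the ninth to the fifth place, at 75.7 ± 5.71 TPM, above Nefh at 60.9 ± 2.93 TPM and below Nefm at 138 ± 1.73 TPM, without overlap with either. Prph also moved from place 9 to place 5 when the longest transcript was used as the length, with Vim instead of Nefh just below it. With the summed exon length, Gfap stood above Nefl in Kdm1a-ifKOs, at 500.1 ± 72.6 against 407 ± 8.11 TPM, while Vim and Synm overlapped. With the length of the longest transcript Gfap was already above Nefl in controls, so the order of these 2 genes depended on the length used.

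**Figure D1:**
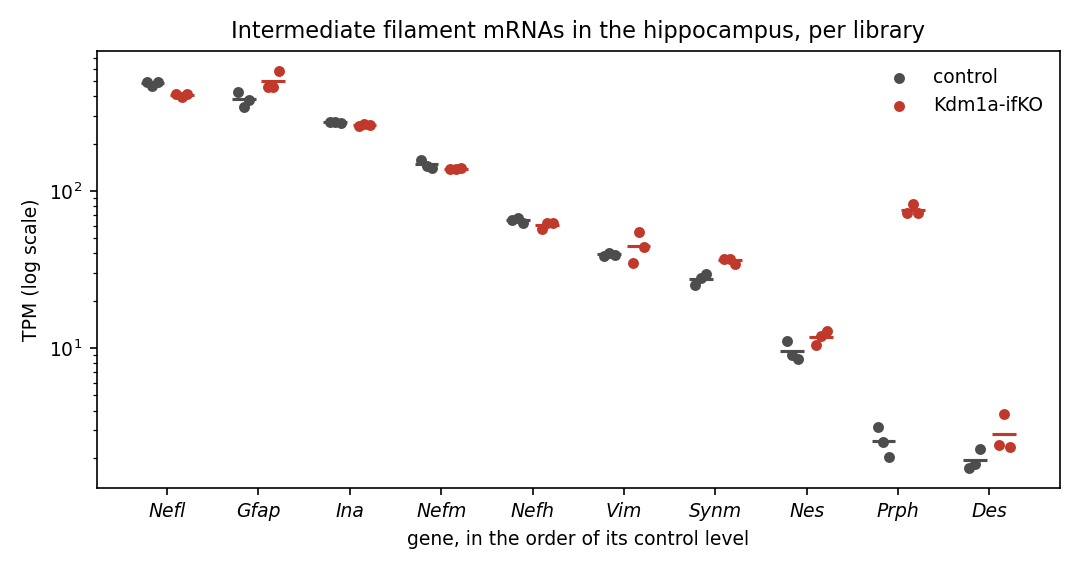
TPM of the 10 intermediate filament genes (log axis) in each of the 3 control (grey) and 3 Kdm1a-ifKO (red) libraries, with horizontal bars at the group means. Prph lies between 2.02 and 3.13 TPM in controls and between 72.3 and 82.3 TPM in Kdm1a-ifKOs, while the other genes stay near their control level on this axis.

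Prph (ENSMUSG00000023484, chr15:99055174-99058978 of GRCm38, plus strand) was covered by 30, 24 and 19 counts in controls, compared with 707, 805 and 710 counts in Kdm1a-ifKOs. These are 1.57, 1.26 and 1.02 CPM against 36.4, 40.9 and 36.5 CPM. Every Kdm1a-ifKO library was thus far above every control library, and Prph was low but detected in all 3 controls. The group means, 1.28 ± 0.275 and 37.9 ± 2.58 CPM (SD, n = 3), differed 29.5-fold. The log2FC was 4.87 (SE 0.13, edgeR's adjusted p = 5.99e-11), the 14th highest of the 16799 tested genes, and its adjusted p was the second lowest. The log2FC stayed between 4.74 and 5.05 when each library was left out in turn. No other annotated gene overlaps the Prph locus.

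The 4 type IV neurofilament genes did not follow Prph. Nefl, which encodes the light chain that neurofilaments need for assembly, had 416, 399 and 421 CPM in controls, compared with 350.4, 334 and 349.7 CPM in Kdm1a-ifKOs. All 3 Kdm1a-ifKO libraries lay below the controls, the mean fell by 16.4%, and the log2FC was -0.26 (SE 0.05, edgeR's adjusted p = 0.00475). Nefm, the medium chain, had 229, 209 and 206 CPM in controls, compared with 199, 197 and 204 CPM in Kdm1a-ifKOs, with a log2FC of -0.10 (SE 0.05, adjusted p = 0.277). The groups of Nefm do not overlap, but control replicate 3 and Kdm1a-ifKO replicate 3 are nearly equal. Nefh, the heavy chain, had a log2FC of -0.10 (SE 0.06, adjusted p = 0.297), with 63.5 to 67.4 CPM in controls, compared with 57.7 to 62.8 CPM in Kdm1a-ifKOs. Ina had a log2FC of -0.06 (SE 0.05, adjusted p = 0.489), with 222 to 223 CPM against 211 to 216 CPM. Nefl was the only one of the 4 called, although all 4 were lower in Kdm1a-ifKOs without overlap of the groups, as were 14.4% of all tested genes. The annotated Nefl and Nefm genes overlap on opposite strands, as do Ina and Nt5c2, and the strand setting of the counting is not known, so their counts are uncertain to that extent.

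Synm was the other member that rose. It had 50.2, 55.9 and 58.9 CPM in controls, compared with 74.1, 73.2 and 68.5 CPM in Kdm1a-ifKOs. The groups do not overlap, and the log2FC was 0.39 (SE 0.07, edgeR's adjusted p = 0.00263). Synm held 7335 counts over the 6 libraries, and Ttc23, which overlaps it on the opposite strand, held 377.

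The remaining members are filament genes of glia, progenitors, vessels and muscle, and none of them was called. Gfap, the astrocyte filament gene, had 451, 366 and 403 CPM in controls, compared with 485, 480.4 and 619 CPM in Kdm1a-ifKOs, a log2FC of 0.38 (SE 0.12, edgeR's adjusted p = 0.107). Kdm1a-ifKO replicate 3 was the highest Gfap library, and the groups do not overlap. Des had 31, 33 and 40 counts in controls and 44, 70 and 43 counts in Kdm1a-ifKOs, a log2FC of 0.54 (SE 0.24, adjusted p = 0.177), and Kdm1a-ifKO replicate 2 stood above all others. Nes had 17.7, 14.6 and 13.9 CPM in controls, compared with 16.8, 19.1 and 20.6 CPM in Kdm1a-ifKOs, and the groups overlap (log2FC 0.29, SE 0.11, adjusted p = 0.120). Vim had 45.9, 48.3 and 47.2 CPM in controls, compared with 41.2, 64.2 and 52.8 CPM in Kdm1a-ifKOs, with overlapping groups (log2FC 0.16, SE 0.15, adjusted p = 0.562). The Vim value rested on Kdm1a-ifKO replicate 2, without which its log2FC was -0.0046. Gfap and Nes passed the threshold without the filter on low counts (adjusted p = 1.02e-06 and 0.0260), and Nes also without control replicate 1 (adjusted p = 0.0389).

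**Figure D2:**
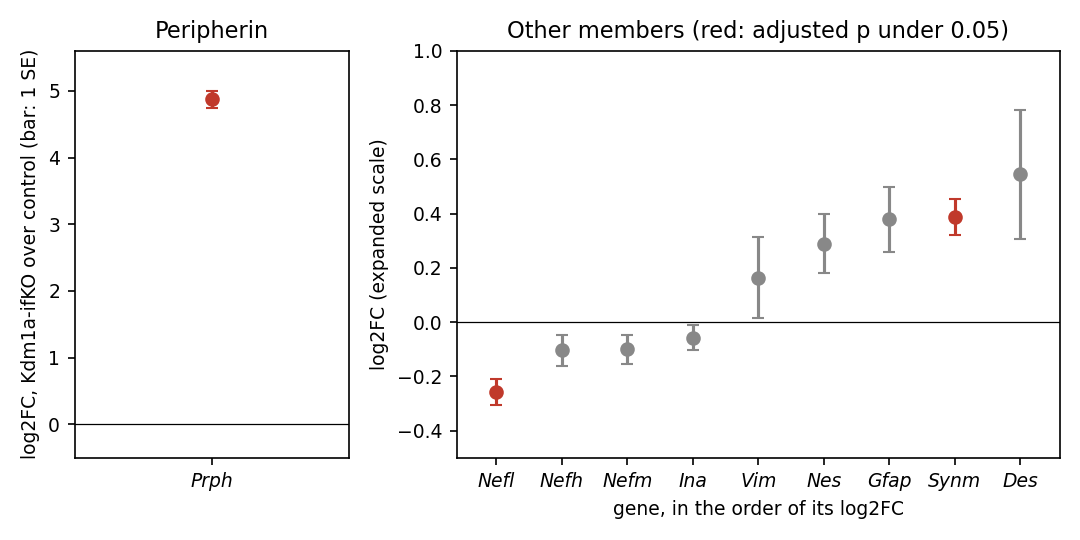
log2FC of Kdm1a-ifKO over control from edgeR, with bars of 1 SE, for Prph (left) and on an expanded axis for the other 9 genes (right), with red points for an adjusted p under 0.05. Prph stands at 4.87, Nefl at -0.26 and Synm at 0.39, while the grey points of the other 7 genes did not pass the threshold.

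In all, 2 of the 10 members were called higher and 1 lower, compared with 6.04% and 2.82% of all tested genes. The groups did not overlap for 4 members that were higher (Prph, Gfap, Des and Synm), compared with 15.7% of all tested genes, and for the 4 lower type IV genes. The median log2FC was 0.23 over the members and -0.00 over all tested genes. Prph, Nefl and Synm were called in each of the 11 other fits, including DESeq2.

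The makeup of the filament mRNA differed between the genotypes, and not in Prph alone. The share of Prph in the summed TPM of the 10 genes was 0.210%, 0.181% and 0.142% in controls. In Kdm1a-ifKOs it was 4.89%, 5.44% and 4.45%. The difference was 4.75 percentage points (exact permutation test, two-sided p = 0.1, the smallest that 3 mice against 3 allow). The share of Nefl fell from 33.8 ± 0.860% to 26.5 ± 1.30%, without overlap. That of Gfap, which was not called, rose from 26.7 ± 1.80% to 32.3 ± 3.05%, also without overlap. This gain was larger than that of Prph. The summed level of the 10 genes, 1434 ± 57.3 TPM in controls and 1541 ± 77.8 TPM in Kdm1a-ifKOs, did not differ beyond the spread (exact permutation test, p = 0.2).

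Cell type markers were read beside the members, since Gfap, Vim, Nes, Synm and Des are also made by cells that kept Kdm1a. For these and the following lists, the shares over all tested genes were 6.04% called higher and 2.82% called lower. Of 10 astrocyte markers, 4 were called higher and none lower (Sox9, S100b, Slc1a3 and Aldoc, log2FC 0.38, 0.26, 0.22 and 0.20). Their summed level ranged from 5306 to 5925 CPM in controls, compared with from 5856 to 6089 CPM in Kdm1a-ifKOs. Only 1 of them was called when control replicate 2 or Kdm1a-ifKO replicate 3 was left out. Of 8 microglia markers, 3 were called higher (Tmem119, Csf1r and Cx3cr1), with sums of 342 to 370.5 CPM in controls, compared with 390 to 499 CPM in Kdm1a-ifKOs, and none was called without control replicate 1, control replicate 2 or Kdm1a-ifKO replicate 3. The 10 mural cell markers summed to 287 to 295 CPM in 5 libraries and to 407 CPM in Kdm1a-ifKO replicate 2, the library highest for Vim and Des, and Pdgfrb was called higher (log2FC 0.39). In the same library the 10 endothelial markers summed to 355 CPM, compared with 287 to 305 CPM in the others, and none was called in edgeR or DESeq2, while 1 had an unadjusted edgeR p under 0.05. The 8 excitatory neuron markers summed to 7410 to 7887 CPM in controls, compared with to 7284 to 8019 CPM in Kdm1a-ifKOs, and Neurod6 was called lower (log2FC -0.36). No marker of these lists was at 0 in all libraries. The part of these cell types in the values of Gfap, Vim, Nes, Synm and Des was not tested.

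**Figure D3:**
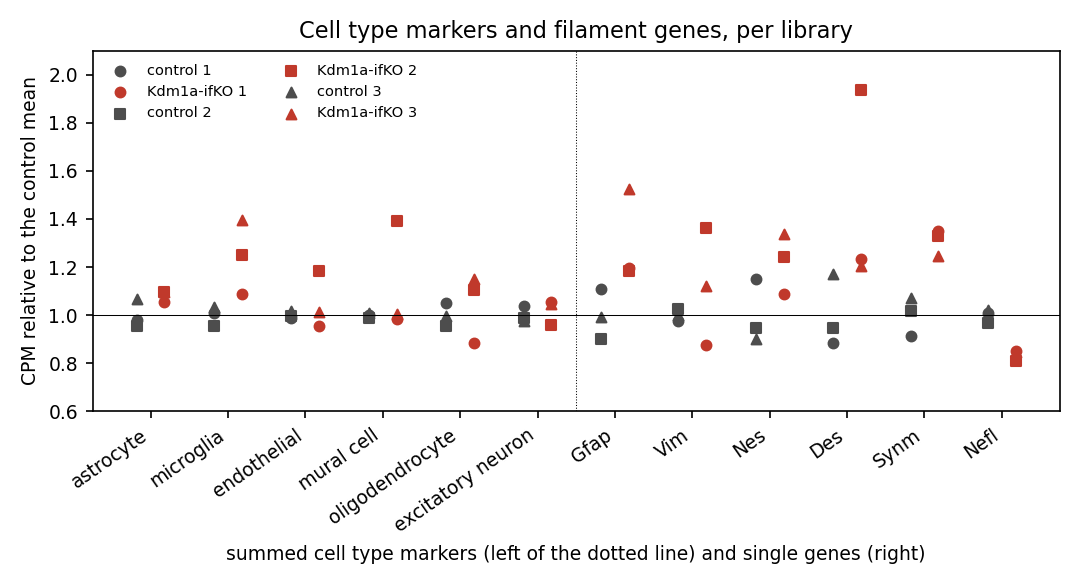
CPM relative to the control mean for the summed markers of 6 cell types (left of the dotted line) and for 6 filament genes (right), with 1 symbol per library. The square of Kdm1a-ifKO replicate 2 is the highest point for mural cells (407 CPM), Vim (64.2 CPM) and Des (3.55 CPM). The genotypes do not overlap for the summed microglia markers, Gfap, Des, Synm and Nefl.

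The other cell type lists held few calls. Of the reactive astrocyte genes, 1 of 6 tested was higher (Osmr, log2FC 0.47). Of the neural progenitor markers, 1 of 9 was higher (Neurog2, log2FC 1.11), and of the ependymal markers, 1 of 6 was lower (Enkur, log2FC -0.76). None of 8 oligodendrocyte markers was called in edgeR or DESeq2, and 0 had an unadjusted edgeR p under 0.05. Of 8 interneuron markers, 2 were lower (Cort and Kcnc2, log2FC -0.52 and -0.24). The calls of Osmr, Enkur, Cort and Kcnc2 were lost when any 1 of several libraries was left out.

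Genes that link, transport, fold or remove filaments were read next. Of 20 such genes, 4 were called higher and none lower, compared with 6.04% and 2.82% of all tested genes. Bag3, a co-chaperone of filament turnover, rose from 9.94 ± 1.74 to 19.5 ± 1.36 CPM (log2FC 0.97, SE 0.12, edgeR's adjusted p = 1.63e-04). The small heat shock genes Hspb1 (log2FC 0.81, adjusted p = 0.00959) and Cryab (log2FC 0.32, adjusted p = 0.0259) and the neurofilament motor gene Kif5a (log2FC 0.19, adjusted p = 0.0370) also rose. Bag3 and Hspb1 were called in all 11 other fits, whereas Cryab and Kif5a were both lost on leaving out control replicate 2 or Kdm1a-ifKO replicate 3. The median log2FC of the 20 genes was -0.04.

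Of 8 nuclear and lens intermediate filament genes, 1 was called. Bfsp1, which encodes the lens filament protein filensin, rose from 0.280 ± 0.158 to 1.40 ± 0.265 CPM (log2FC 2.29, SE 0.39, edgeR's adjusted p = 0.00257). Of 50 keratin genes, the filaments of epithelia, 11 passed the filter and 11 were at 0 in every library. Krt9 alone was called higher (log2FC 0.46, adjusted p = 0.0268), and the call was lost on leaving out control replicate 2 or 3 or Kdm1a-ifKO replicate 1 or 3.

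The microtubule and spectrin genes of neurons lay on the side of Nefl. Of 21 genes, 3 were called lower and none higher, 19 had a negative log2FC, and the median was -0.13. Of all 16799 tested genes, 2.82% were called lower and 6.04% higher. A positive log2FC was found for 8251 of them, and their median was -0.0034. Tuba4a (log2FC -0.20, edgeR's adjusted p = 0.0210), Tubb2a (log2FC -0.19, adjusted p = 0.0428) and the tubulin-binding gene Stmn2 (log2FC -0.19, adjusted p = 0.0258) were the called genes. The calls were not stable, since no gene of the list was called with upper-quartile normalization or without control replicate 1, control replicate 2, Kdm1a-ifKO replicate 1 or Kdm1a-ifKO replicate 3.

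Prph is a marker of peripheral neurons, so 28 further genes of such neurons were listed. The symbol of Drgx matched no gene of the count table, which left 27. Only 9 passed the filter, and Pou4f2, Hand2, Scn10a and Mnx1 were among those at 0 in every library. Dbh, the noradrenaline-synthesizing enzyme, was the only call, at 0.298 ± 0.196 CPM in controls, compared with 0.904 ± 0.0357 CPM in Kdm1a-ifKOs (log2FC 1.57, SE 0.42, edgeR's adjusted p = 0.0339). It was lost in DESeq2 and without any 1 of 5 libraries. Phox2a, a transcription factor of noradrenergic neurons, and Slc18a3, the vesicular acetylcholine transporter, were picked after their values were seen. Phox2a had 0 counts in every control and 9, 5 and 6 counts in Kdm1a-ifKOs, at least 6.46-fold higher when 3 counts over the group are taken as the limit. Slc18a3 had 2 counts over the controls and 33 over the Kdm1a-ifKOs, a ratio of 16.0 (95% exact binomial interval 4.09 to 137, which covers counting error only).

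Peripherin is also known as a gene that rises after axon injury, and 16 of 18 genes of that response were tested. Of these, 4 were called higher and 2 lower, compared with 6.04% and 2.82% of all tested genes. The neuropeptide gene Gal rose from 0.211 ± 0.0521 to 1.60 ± 0.125 CPM (log2FC 2.89, SE 0.34, edgeR's adjusted p = 1.20e-04). Ecel1, a neuronal endopeptidase, rose from 5.79 ± 2.73 to 21.7 ± 4.90 CPM (log2FC 1.90, SE 0.37, adjusted p = 0.0438), and Csf1, the growth factor of microglia, had a log2FC of 0.44 (adjusted p = 8.60e-04). The neuropeptide genes Vip (log2FC -0.46, adjusted p = 0.0122) and Npy (log2FC -0.31, adjusted p = 0.0106) fell. Gal, Csf1 and Npy were called in all other fits, Vip was lost without Kdm1a-ifKO replicate 1 or 3, and Ecel1 was lost in 6 of the 11. The median log2FC of the 16 genes was 0.01, and Sprr1a was at 0 in every library.

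The genes whose profile over the 6 libraries was nearest to Prph were Zar1, Otop1, Nags, Tmem30b and C1ql4. Likeness was the Euclidean distance between log2 CPM values, each centred on the mean of its gene, and it rose from 0.44 for Zar1 to 1.03 for C1ql4. All 5 had only 1 or 2 counts over the 3 controls, compared with 73 for Prph, so their control levels and distances depend on the count added before the logarithm. C1ql4 differs from the others in position, since it lies on the same chromosome as Prph, with its start 32.6 kb away. It had 331 counts over the Kdm1a-ifKOs, and Zar1 had 152.

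The neighbourhood of Prph was described next. Within 500 kb of its start, 34 genes were tested, of which 7 were called higher and 1 lower. Over all tested genes, 6.04% were called higher and 2.82% lower. The nearest tested genes were Tuba1c on the left, with its start 25.3 kb from that of Prph, and C1ql4 on the right. Tuba1c had 0.971 CPM in controls, compared with 2.03 CPM in Kdm1a-ifKOs (log2FC 1.06, SE 0.31, edgeR's adjusted p = 0.0534). Reads that match it and the near-identical Tuba1a or Tuba1b equally well may be missing, since only mapping quality over 30 was kept. C1ql4, a C1q-like secreted protein, had 1, 0 and 1 counts in controls and 110, 98 and 123 counts in Kdm1a-ifKOs (adjusted p = 7.30e-08).

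On the right, Spats2 (log2FC 0.31, adjusted p = 0.00982) and the potassium channel gene Kcnh3 (log2FC 0.40, adjusted p = 0.00128) were also higher by edgeR. On the left, the neighbouring signalling genes Wnt1 (log2FC 2.03, adjusted p = 0.00151) and Wnt10b (log2FC 1.98, adjusted p = 0.00125) rose, Wnt1 from 0.405 to 1.67 CPM and Wnt10b from 0.424 to 1.69 CPM. The calcium channel subunit gene Cacnb3 (log2FC 0.23, adjusted p = 0.0254) and the adenylyl cyclase gene Adcy6 (log2FC 0.22, adjusted p = 0.0310) were higher by less, and Ccnt1 (log2FC -0.26, adjusted p = 0.0251) was the lower one. C1ql4, Wnt1, Wnt10b, Kcnh3 and Spats2 were called in all 11 other fits. Cacnb3, Adcy6 and Ccnt1 were lost without Kdm1a-ifKO replicate 1 and without Kdm1a-ifKO replicate 3. The median log2FC of the 34 neighbours was 0.11.

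The CTCF loops at the members came from the single library of excitatory nuclei, so they have no replicate and no counterpart in Kdm1a-ifKOs. Paired-end tags (PETs) count the read pairs that join the anchors of a loop, and the deposited loops had at least 3 PETs. An anchor lay within 10 kb of the gene body for 9 of the 10 members, compared with 56.9% of the tested genes with a position. Nes had the most loops, 23 with 551 PETs in all and 152 in its strongest. Prph followed with 15 loops and 59 PETs, while the median tested gene had 1 loop and the 90th percentile was 9 loops. Nefm had 9 loops, Nefh 8, Nefl 6, Gfap 4, Ina 3, Synm 2 and Vim 1, and Des had none. Nefl and Nefm are neighbours, so an anchor can count for both.

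The Prph loops were weak, with 3 to 8 PETs each, and only 3 of the 15 had at least 5. In 12 of them, with 49 PETs in all, the anchor lay upstream, between 99048678 and 99051394 on chromosome 15. In the other 3, with 10 PETs in all, the anchor lay in the gene itself. The promoter shown above is part of 1 of these anchors, chr15:99054904-99055714, which also covers most of exon 1 and joins chr15:99073900-99075068 at Troap and Gm34284 with 3 PETs. A second anchor, chr15:99055925-99057187, covers exons 2 to 4 and joins chr15:99073991-99074935 at the same genes with 4 PETs. The last, chr15:99055925-99056780, joins chr15:99086488-99087283 within C1ql4 with 3 PETs. C1ql4 was also joined to the upstream anchors by 1 loop of 4 PETs. The strongest loop, of 8 PETs, ran from the upstream anchors to Gm34284. The other genes at far anchors were Dnajc22 (3 loops), Spats2 (1 loop) and 4930578M01Rik (1 loop, log2FC -0.51, adjusted p = 0.247 by edgeR). Troap, Dnajc22 and Gm34284 were not among the tested genes. Among the partners, C1ql4 and Spats2 were thus called higher, and the part of the loops in the Prph level was not tested.

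**Figure D4:**
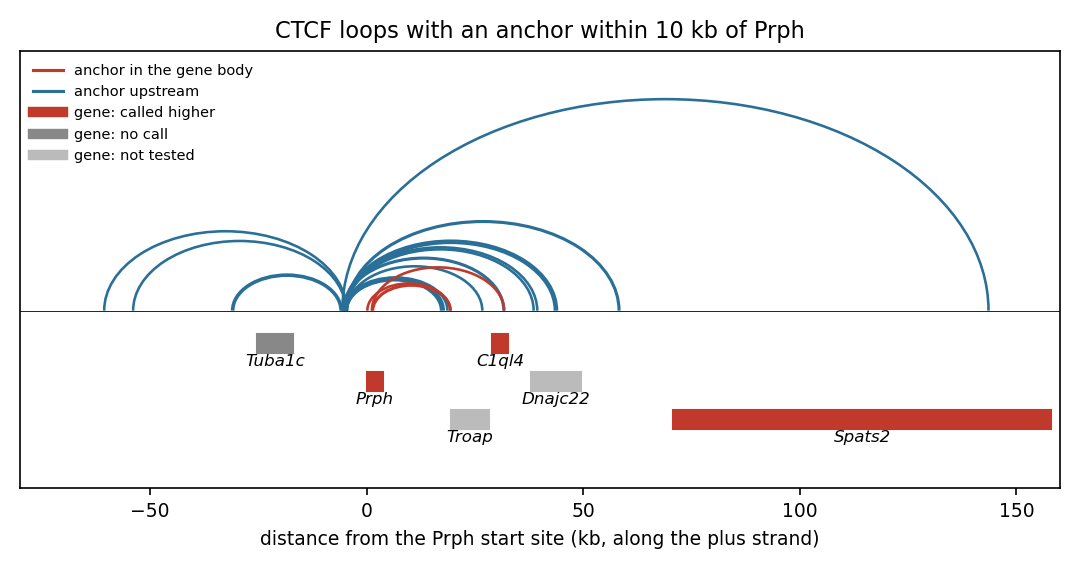
CTCF loops with an anchor within 10 kb of Prph, drawn as arcs between anchor midpoints against the distance from the Prph start site in kb, with thicker lines for more PETs (3 to 8), arc height scaled to loop span, and gene bodies below. Arcs from anchors upstream of Prph (blue, 12 loops) outnumber those from the gene itself (red, 3 loops), and both reach C1ql4, which was called higher in Kdm1a-ifKOs.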

How the data were processed

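The authors made the deposited counts from single-end poly-A reads of 6 hippocampal libraries. They trimmed with cutadapt 1.18, aligned to GRCm38 (mm10) with HISAT2 2.1.0, kept nuclear reads of mapping quality over 30 and counted per Ensembl gene with HTSeq 0.11.1. The strand setting is not given in the sources used here. The deposited PET counts come from ChIA-PIPE, filtered for 3 or more PETs with each anchor on a CTCF peak.

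Counts were tested here in edgeR 4.0.16 (filterByExpr, TMM, robust quasi-likelihood F test, genotype only), with Benjamini-Hochberg adjustment over all tested genes and calls at an adjusted p under 0.05. SEs are the log2FC divided by the square root of F. Alternatives were DESeq2 1.42.0, other normalizations, no filter, a block and each library left out. The fit was tested on simulated counts. Positions and lengths came from GENCODE M21 (GRCm38), which covered 99.3% of the genes, and promoters from RefSeq.

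The members and lists, and the rule for named genes, were chosen with earlier results of these data known. The rule takes the members, list genes and neighbours with a call (at most 4 a list), list markers at 0, the 5 nearest profiles and loop partners. Npy, Phox2a and Slc18a3 were named outside this rule. The 3 mice per group are separate animals, and the main fit did not pair them by replicate number. PET intervals were not computed. Protein sequences were not analysed here. Results for some list genes are not reported here.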

Additional observations from a re-analysis of the deposited data

How the results depend on the processing

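Over the 11 other fits, the calls of Kdm1a, Prph, Nefl and Synm kept their direction and their side of the threshold. Leaving out a library gave a log2FC of -1.09 to -1.05 for Kdm1a and 4.74 to 5.05 for Prph, and 3 to 4 called members. Without the filter on low counts 5 members were called, Gfap and Nes among them. The log2FC of Vim ranged from -0.0046, without Kdm1a-ifKO replicate 2, to 0.31, without Kdm1a-ifKO replicate 1. The count of list genes called, 31, became 49 without the filter and 13 to 25 with a library left out, and 11 of the 31 were called in every fit. The count of neighbours called, 8, was 5 to 8 with a library left out and 3 within 250 kb. The gain in the Prph share, 4.75 percentage points, was 4.02 with the longest transcript as length, 2.39 without division by length, and 4.49 to 4.98 with a library left out. Without division by length, 6 of 10 members kept their place in the control order. Loops of at least 10 PETs were left at 5 members. For Prph, 15 loops became 3 at 5 PETs, 0 at 10 PETs and 3 for anchors in the gene body. Over all genes, 1487 were called, 1399 in DESeq2, 1573 with upper-quartile normalization, 2537 without the filter and 783 to 1460 with a library left out. The cause of these shifts was not tested.

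Same-numbered libraries did not deviate together (correlations of -0.03, -0.09 and -0.15), and no library correlated best with its own number. These values gave no sign of pairing by number, but so few mice cannot exclude it. With the replicate block, the log2FC of Prph was 4.88, 3 members, 21 list genes and 7 neighbours were called, and 1046 genes over all. At 18985542 to 19469947 counts per library, genes such as Des (31 to 70 counts) are limited by counting.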
